A study of Caenorhabditis elegans with 19 samples.

Results

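The large-subunit ribosomal protein genes described here were the protein-coding genes whose symbol starts with rpl- or rla-, apart from rpl-3, rpl-11.1 and rpl-11.2. The rule used names alone and no measured value. It gave 47 genes, 44 with an rpl- and 3 with an rla- symbol, out of 19985 protein-coding genes, and all 47 were present in both count tables.

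Gonads were dissected from young adult Caenorhabditis elegans hermaphrodites of 3 auxin-inducible degron strains, in which a tagged protein is destroyed when the plant hormone auxin (IAA) is given. Strain ESC332 allowed depletion of the RNA polymerase I subunit RPOA-2, part of the enzyme that transcribes the large ribosomal RNA precursor. Strain ESC422 allowed depletion of GRWD-1, a chaperone for assembly of the large subunit, and strain ESC420 depletion of TSR-2, a chaperone of a small-subunit protein. Late L4 larvae were kept for 18 hours at 1 mM auxin or on plates with the ethanol (EtOH) solvent alone, 20 gonads went into each total RNA library, and every group shared the degron tag of its strain. The RPOA-2 strain had 4 ethanol and 4 auxin libraries, the GRWD-1 strain 3 and 3, and the TSR-2 strain 2 and 3. The tissue in which each strain expresses the auxin receptor, and which alleles it carries besides the tag, are not given in the sources used here. No strain without a degron was among these libraries, so an effect of auxin itself and an effect of the loss of the protein cannot be told apart. The degron acts on protein, so the RNA of the targeted gene does not check the depletion.

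A cytosolic ribosome has a small subunit that decodes the mRNA and a large subunit that joins amino acids. The large-subunit proteins bind the large ribosomal RNAs during assembly in the nucleolus, and their genes are among the most strongly transcribed in growing cells. In the C. elegans gonad the germ cells make the ribosomes with which the oocyte is stocked. Several C. elegans ribosomal protein genes, rpl-12, rpl-7A and rpl-1 (the ortholog of human RPL10A) among them, are also known to make alternatively spliced mRNAs that carry a premature stop and are cleared by nonsense-mediated decay.

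Protein-coding counts per library were 1582308 to 4336988 in ethanol and 2422766 to 8012912 in auxin for the RPOA-2 strain. They were 2031037 to 2993987 and 4229644 to 8526501 for the GRWD-1 strain, so auxin libraries were deeper there without overlap. With all libraries thinned to the smallest, the genes reported below as lower in these strains were still called. In the TSR-2 strain 4 libraries held 1903532 to 3950204 protein-coding counts, but auxin replicate 3 held 43631, and 3 counts in it equal 68.8 CPM (counts scaled to a common library size). Summed markers of the intestine, a neighbouring tissue that supplies yolk, ranged from 1744 to 42579.5 CPM in RPOA-2 ethanol libraries and from 694 to 23735 CPM in auxin libraries, and none of the 7 markers tested (of 8) passed with edgeR, at an unadjusted p under 0.05 or with DESeq2. In the GRWD-1 strain the intestinal sum was 837 to 4915 CPM in ethanol and 458.4 to 1903 CPM in auxin (median log2 change -1.24), and none of 6 tested markers passed with edgeR or DESeq2, with 2 lower at an unadjusted p under 0.05. In the TSR-2 strain the intestinal sum was 1339 to 2066 CPM in ethanol and 213 to 917 CPM in auxin. With edgeR 4 of 6 tested markers were lower (vit-1, vit-3, vit-4 and vit-5), all 6 were lower at an unadjusted p under 0.05, and DESeq2 called 1. The intestinal regulator elt-2 was at 0 to 6.32 CPM in the RPOA-2 ethanol libraries. The part of these tissues in the results was not tested. Of 9 markers of distal and pachytene germ cells syp-1 was higher in the RPOA-2 and TSR-2 strains and none passed in the GRWD-1 strain (1 at an unadjusted p under 0.05, 0 with DESeq2). DESeq2 called 1 of the 9 in the RPOA-2 strain and 0 in the TSR-2 strain. Oocyte markers were present in all groups (9 of 9 tested in each strain), and sperm markers (31 msp- genes) summed to 0 to 96.4 CPM. The oocyte sum in the TSR-2 strain was 13672 to 14391 CPM in ethanol and 10360 to 12922 CPM in auxin. For distal and pachytene germ cells it was 3638 to 4614 CPM and 4914 to 6046 CPM. For gonadal sheath and muscle it was 222 to 250 CPM and 106 to 166 CPM. None of these groups overlapped in the TSR-2 strain, while all did in the RPOA-2 and GRWD-1 strains. The part of these differences in the results was not tested.

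In ethanol the 47 genes spanned a wide range of levels. Per kilobase of annotated exon, the median gene stood at 1715 CPM per kb in the RPOA-2 strain, 2249 in the GRWD-1 strain and 1982 in the TSR-2 strain, and 36, 39 and 36 genes reached 1000 CPM per kb. The highest in the RPOA-2 strain were rpl-25.2, the RPL23A ortholog at the mouth of the exit tunnel, at 10341 ± 2440 CPM per kb (SD, n = 4), rpl-2, the RPL8 ortholog near the catalytic centre, at 7572 ± 2031, and rpl-6 at 6672 ± 1481. Those 3 genes were also the highest in both other strains. The values overlapped between libraries, but within each of the 4 RPOA-2 and each of the 3 GRWD-1 ethanol libraries the order was rpl-25.2, rpl-2, rpl-6. In the TSR-2 strain rpl-25.2 and rpl-2 changed places between the 2 libraries.

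**Figure D1:**
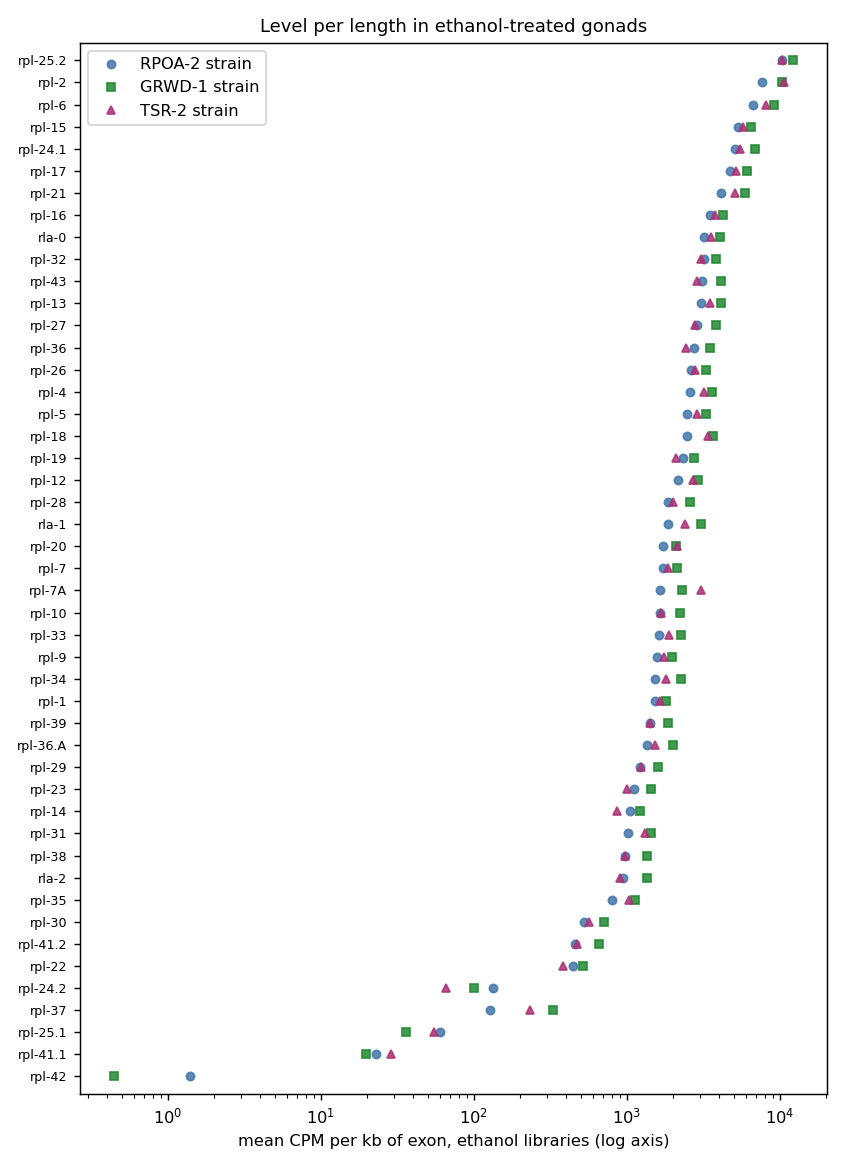
Mean level of each large-subunit gene in ethanol libraries, in CPM per kb of exon on a log axis, with a marker per strain (RPOA-2, n = 4; GRWD-1, n = 3; TSR-2, n = 2, from the fractional table). The points of the 3 strains lie close together for most genes, from rpl-25.2 at the top to rpl-42 at the bottom, where the TSR-2 value of 0 cannot be drawn.

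The lowest levels belonged to rpl-42, rpl-41.1 and rpl-25.1. In the RPOA-2 ethanol libraries rpl-42 was at 0, 3.16, 0.885 and 0 CPM, and it had no count in any TSR-2 library. It was the gene left untested in every strain. The gene rpl-41.1 stood at 23.0 ± 8.80 CPM per kb (SD, n = 4) and rpl-25.1 at 60.0 ± 41.3 in the RPOA-2 strain. The order of the 47 levels was close between strains, with Spearman's rho across genes of 0.991 for RPOA-2 against GRWD-1, 0.976 for RPOA-2 against TSR-2 and 0.981 for GRWD-1 against TSR-2. Genes are not independent replicates, and the libraries shared one protocol, so these values are descriptive.

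Genes that carry one number in their symbol differed widely in level. Per kilobase, rpl-25.2 exceeded rpl-25.1 172-fold in the RPOA-2 strain, 339-fold in the GRWD-1 strain and 188-fold in the TSR-2 strain. The gene rpl-24.1, which encodes the RPL24 ortholog, exceeded rpl-24.2 by 38.5, 68.5 and 82.9 times in the same order. rpl-24.2 is the ortholog of human RSL24D1, an assembly factor that is released before RPL24 joins. The neighbours rpl-41.2 and rpl-41.1, both on the plus strand of chromosome I, differed by 20.0, 33.2 and 16.5 times. In contrast rpl-7 and rpl-7A, which encode unrelated proteins, differed 1.04-fold in the RPOA-2 strain, 1.07-fold in the GRWD-1 strain and 1.64-fold in the TSR-2 strain. rpl-7 was higher in the RPOA-2 strain and rpl-7A in the GRWD-1 and TSR-2 strains. Reads that map to both copies of a pair could be split or dropped by the counting, which makes the ratios of near-identical pairs uncertain. The TSR-2 ratios came from the fractional table and the others from the protein-coding matrix. Over the 12 libraries in both, the fractional count was 0.5003 times the matrix count for rpl-24.2 and 1.43 times for rpl-7A. For rpl-24.1 and rpl-7 it was 1.003 and 1.02 times. The TSR-2 ratios of these pairs are therefore not directly comparable with those of the other strains.

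The genes were unevenly placed in the genome. Chromosome I held 17 of the 47 (36.2%, against 14.4% of all protein-coding genes), chromosome II held 9, chromosomes III and IV 8 each, chromosome V 4, and the X chromosome only rpl-25.1 (2.13%, against 13.7%). The annotated exon length ran from 236 to 1119 bases with a median of 530, against 1161 for all protein-coding genes. A small nucleolar RNA, which guides modification of ribosomal RNA, lay in an intron of 8 genes, among them rpl-2, rpl-7A and rpl-26. A non-coding transcript was annotated beside the coding ones for 5 genes, rpl-1, rpl-12, rpl-13, rpl-22 and rpl-30 (10.6%, against 2.72% of protein-coding genes).

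After auxin in the RPOA-2 strain, 4 of 46 tested genes fell and none rose. The genes that fell were rpl-12, rpl-26, rpl-7A and rpl-1. They made up 8.70% of the tested genes, against a background of 3.78% of all 7881 genes tested (298 genes, adjusted p under 0.05 by edgeR's quasi-likelihood test with Benjamini-Hochberg adjustment), with 1.22% lower and 2.56% higher. The median log2 change (auxin minus ethanol) of the 46 was -0.19, against -0.015 over all genes tested, with 41 below 0 and 5 above. That median rested on single libraries. It was -0.085 without ethanol replicate 1, against -0.077 over all genes, and -0.34 without ethanol replicate 2, against 0.020. Within numbered pairs the auxin library was below the ethanol library for 45, 9, 42 and 37 of the 46 genes in pairs 1 to 4, so pair 2 went the other way for most of them. The 4 genes that fell, whose groups did not overlap and which are therefore lower in every pair, had log2 CPM ratios in pair 2 of -0.71 for rpl-12, -0.65 for rpl-26, -0.51 for rpl-7A and -0.37 for rpl-1.

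rpl-12 encodes the protein at the base of the stalk, where elongation factors dock (IV:13239587-13240651, minus strand, WBcel235). Its CPM in RPOA-2 ethanol replicates 1 to 4 was 2077, 1307, 1704 and 1833, and in auxin replicates 704, 801, 682 and 1039. Every auxin library was below every ethanol library. The mean fell from 1730.4 ± 322 to 806 ± 163 CPM (SD, n = 4 each), a log2 change of -1.10 (SE 0.177, edgeR adjusted p = 0.0167).

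rpl-7A encodes a protein on the outer face of the large subunit that binds early in assembly (IV:4389143-4390590, minus strand). Its ethanol libraries gave 1953, 1012, 1486 and 1220.0 CPM and its auxin libraries 771, 708, 619.3 and 711 CPM. Here too the groups did not overlap, and the auxin libraries lay closer together than the ethanol ones. The log2 change was -1.01 (SE 0.185, edgeR adjusted p = 0.0202). An uncharacterised gene, Y24D9A.11, overlaps its exons on the other strand, so reads of the pair were separable only if the counting used strand, which is not given in the sources used here.

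rpl-26 encodes a protein beside the tunnel exit (II:8602785-8603581, plus strand). It stood at 1883, 1158, 1502 and 1981 CPM in ethanol and at 567, 740.0, 662 and 1059 CPM in auxin. The groups were separate, with auxin replicate 4 nearest to the lowest ethanol library. The log2 change was -1.11 (SE 0.218, edgeR adjusted p = 0.0232).

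rpl-1 encodes the protein of the L1 stalk, which contacts the leaving tRNA (I:2875398-2876308, minus strand). Ethanol libraries held 1395, 776, 1078 and 1054 CPM and auxin libraries 538, 600.3, 561 and 665 CPM. Again no auxin library reached an ethanol library. The log2 change was -0.86 (SE 0.163, edgeR adjusted p = 0.0207).

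**Figure D2:**
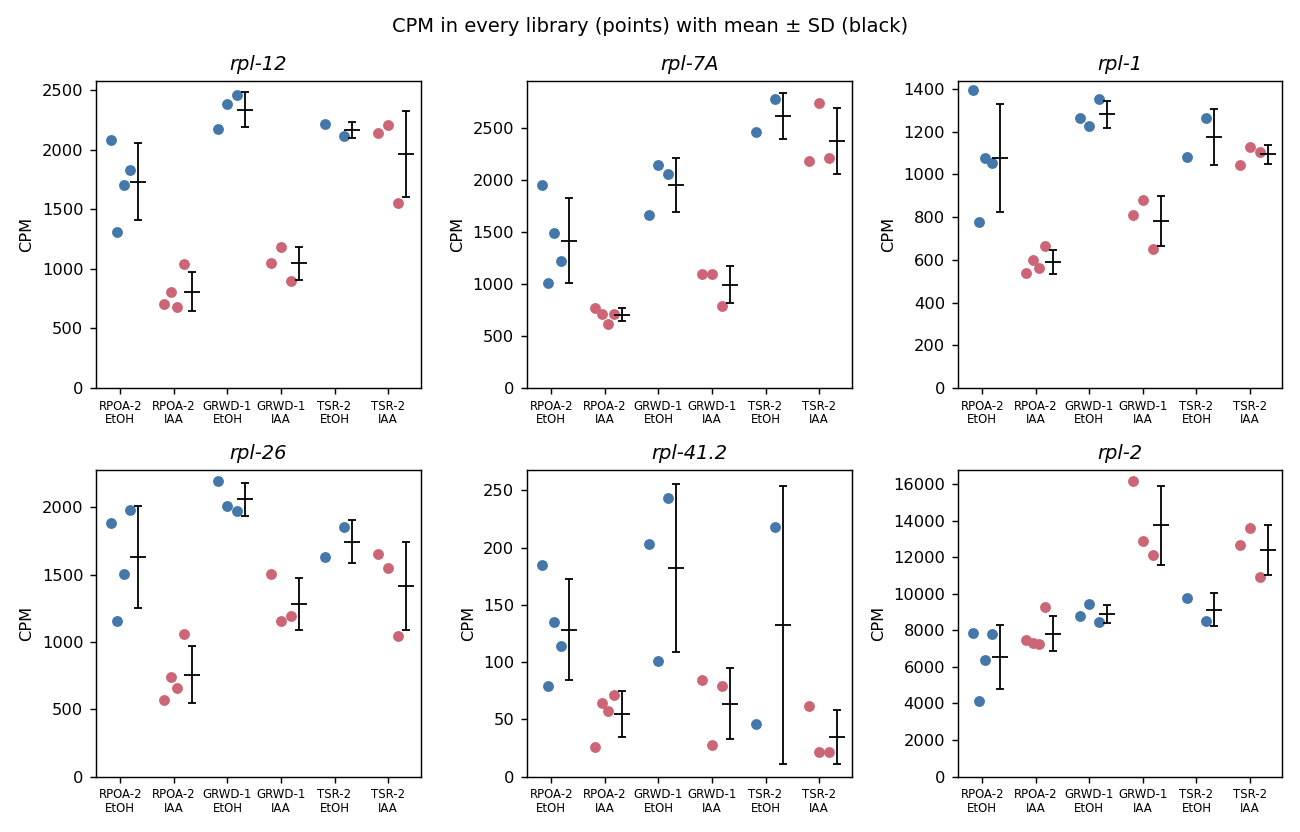
CPM in each library for 6 large-subunit genes, with ethanol libraries in blue, auxin libraries in red, and mean ± SD in black (RPOA-2, n = 4 and 4; GRWD-1, n = 3 and 3; TSR-2, n = 2 and 3, from the fractional table). rpl-12, rpl-7A, rpl-1 and rpl-26 are lower in every auxin library of the RPOA-2 and GRWD-1 strains, and their TSR-2 groups overlap for rpl-7A, rpl-1, rpl-26 and rpl-12, with the shallow auxin replicate 3 the lowest library for rpl-12 and rpl-26.

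Other genes of the RPOA-2 strain missed the threshold. rpl-41.2 had the largest fall in fitted value at -1.24 (SE 0.314, edgeR adjusted p = 0.0534), with ethanol libraries at 185, 79.3, 135 and 114 CPM and auxin libraries at 25.6, 63.9, 57.0 and 71.2 CPM. rpl-22, whose product is an RNA-binding protein of the subunit surface, had a log2 change of -0.78 (edgeR adjusted p = 0.0513, and 0.0432 in a fit blocked on replicate, which called 5 large-subunit genes and 3.4% of all genes), and rpl-20 one of -0.67 (edgeR adjusted p = 0.0503). The highest values were those of rpl-2 at 0.26 (SE 0.234), rpl-25.1 at 0.23 (SE 0.408) and rpl-37 at 0.084 (SE 0.501). At an unadjusted p under 0.05 there were 11 genes, all lower (23.9%, against 19.2% of all genes tested). Libraries did not overlap for 6 genes (13.04%, against 12.9% of all genes), so by that measure the genes were at the background.

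The calls depended on which RPOA-2 libraries entered. So did those over all genes, with 7 to 219 called when 1 library was left out, against 298 in the full fit. Without ethanol replicate 3, auxin replicate 2 or auxin replicate 3 no large-subunit gene passed. Without auxin replicate 1 rpl-12 alone passed, and without ethanol replicate 1 or 4 rpl-12 and rpl-7A did. Without auxin replicate 4 there were 5 and without ethanol replicate 2 there were 9, and both sets held all 4 genes. With replicates 1 to 3 only, rpl-12, rpl-26 and rpl-22 passed, and rpl-7A and rpl-1 did not. All of the log2 changes of rpl-12 under these and the other settings lay between -1.28 and -1.02.

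After auxin in the GRWD-1 strain the same 4 genes fell, and no gene rose. They were again 8.70% of the 46 tested, against 2.69% of all 6948 genes tested (187 genes), with 1.48% lower and 1.21% higher. The median log2 change of the 46 was 0.026 (all genes -0.0017), with 24 above 0 and 22 below. The RPOA-2 and GRWD-1 strains share no library, but the share of all genes called in both strains was not counted.

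In GRWD-1 ethanol replicates 1 to 3 rpl-12 stood at 2170.4, 2380.0 and 2457 CPM, and in auxin at 1051, 1182 and 901 CPM. Its ethanol libraries were above the auxin one in every numbered pair, with log2 ratios of -1.05, -1.01 and -1.45. The fitted log2 change was -1.16 (SE 0.161, edgeR adjusted p = 0.00539). rpl-7A went from 1659, 2148 and 2057 CPM to 1096, 1095 and 792 CPM, a log2 change of -0.98 (SE 0.181, edgeR adjusted p = 0.0174).

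For rpl-1 the ethanol libraries held 1265, 1227 and 1352 CPM and the auxin libraries 812, 878 and 653 CPM. The log2 change was -0.71 (SE 0.160, edgeR adjusted p = 0.0395). rpl-26 stood at 2197, 2008 and 1973 CPM in ethanol and at 1504, 1154 and 1189 CPM in auxin, a log2 change of -0.68 (SE 0.161, edgeR adjusted p = 0.0456). None of these 4 genes had overlapping groups in this strain.

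rpl-2 stood at 8771, 9429.9 and 8481 CPM in ethanol and at 16181, 12911 and 12113 CPM in auxin. All 3 auxin libraries were higher. The log2 change of 0.63 (SE 0.164) did not pass, with an edgeR adjusted p of 0.0652. The gene dhcr-7 overlaps its exons on the other strand. rpl-41.2 went from 203, 101 and 243 CPM to 84.1, 28.0 and 79.1 CPM, with a log2 change of -1.53 (SE 0.383, edgeR adjusted p = 0.0577), and rpl-22 had one of -1.01 (adjusted p = 0.0573). The other high values were rpl-25.1 at 0.70 (adjusted p = 0.288) and rpl-24.2 at 0.48 (adjusted p = 0.309).

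The numbered libraries of the GRWD-1 strain varied together, and a fit blocked on replicate passed 15 genes, against 4 without it. This was 32.6% of the genes tested, against 14% of all genes (975). Of the 15, rpl-2 (log2 change 0.62, adjusted p = 0.00438) and rpl-4, a protein that lines the exit tunnel (0.39, adjusted p = 0.0327), were higher and 13 were lower. The 13 were rpl-12, rpl-7A, rpl-26, rpl-1, rpl-41.2, rpl-22, rpl-38, rla-1, rla-2, rpl-20, rpl-14, rpl-30 and rpl-29. Without the block 11 genes had an unadjusted p under 0.05 (23.9%, against 17.8% of all genes), 10 of them lower, and libraries did not overlap for 11 (23.9%, against 24.6%). Leaving out ethanol replicate 3 ended all 4 calls of the unblocked fit. Without ethanol replicate 1 or auxin replicate 1 the calls were rpl-12 and rpl-7A, and without auxin replicate 2 they were those and rpl-1. Without ethanol replicate 2 they were rpl-12 and rpl-22, and without auxin replicate 3 they were rpl-12, lower, and rpl-2, higher. Over all genes, 26 to 125 were called when 1 library was left out, against 187 in the full fit.

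**Figure D3:**
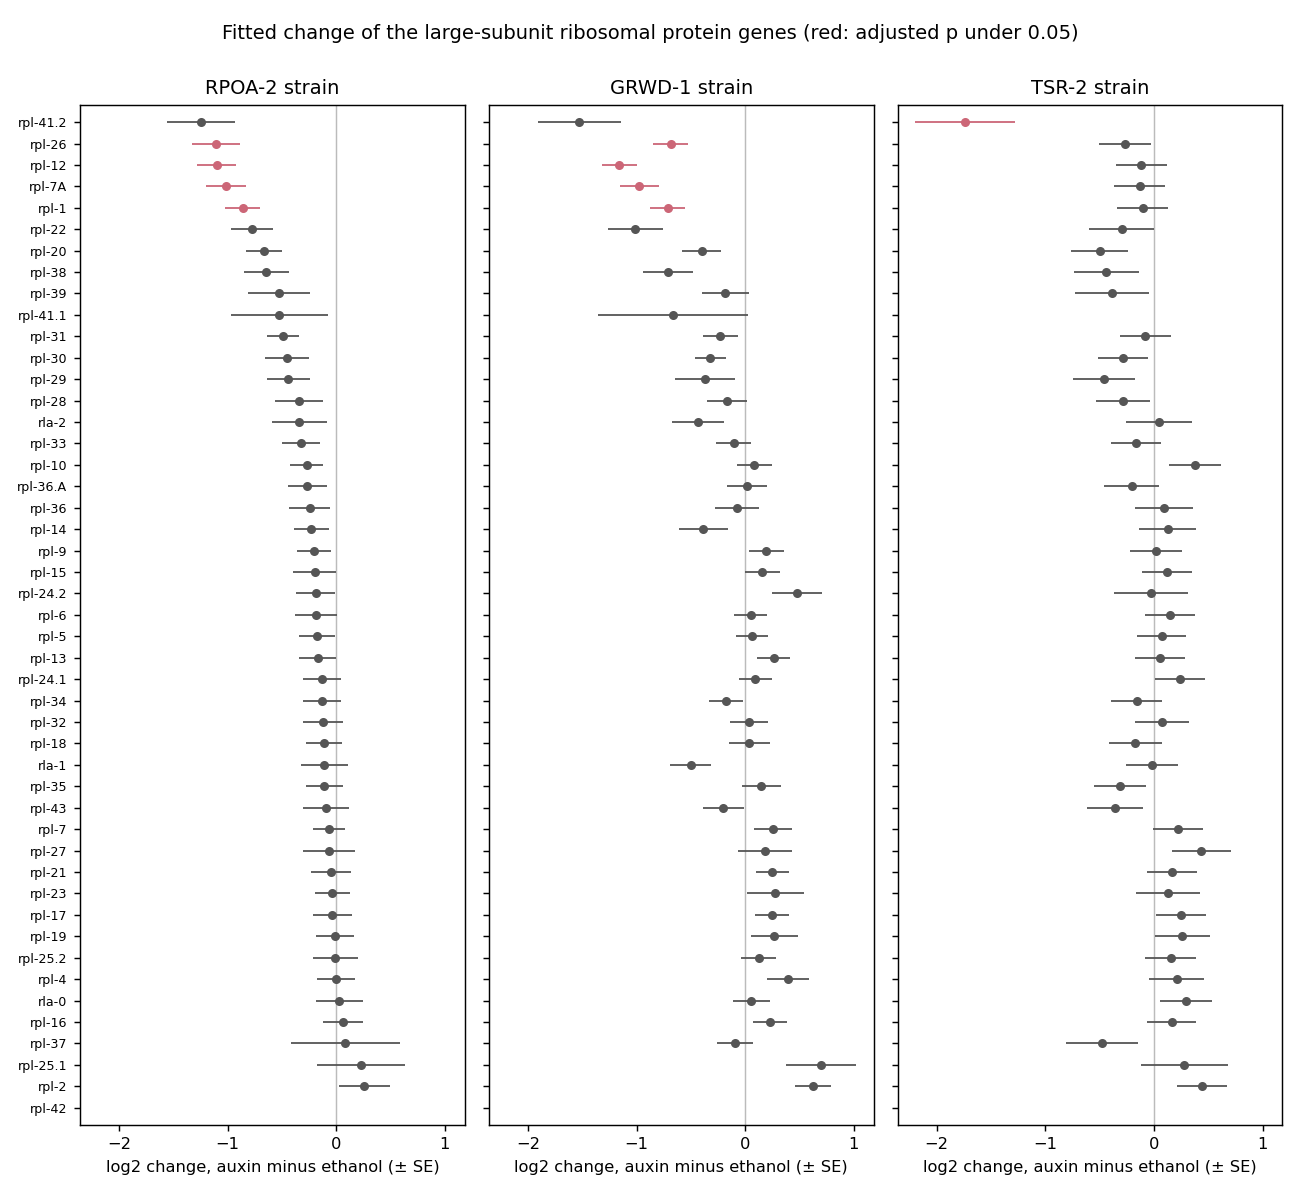
Log2 change (auxin minus ethanol) with its SE for each large-subunit gene in the 3 strains, ordered by the RPOA-2 value, with red for an edgeR adjusted p under 0.05. The 4 red genes of the RPOA-2 strain are also the 4 red genes of the GRWD-1 strain, only rpl-41.2 is red in the TSR-2 strain, and genes not tested have no point.

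After auxin in the TSR-2 strain 1 of 45 tested genes fell, rpl-41.2 (2.22%, against 2.55% of all 6396 genes tested, 163 genes, with 2.02% lower and 0.532% higher), and none rose. It stood at 46.2 and 218 CPM in ethanol and at 61.3, 21.0 and 21.3 CPM in auxin. The groups overlapped, and the value of the shallow auxin replicate 3 lay below its limit of 3 counts. The log2 change was -1.74 (SE 0.460, edgeR adjusted p = 0.0357). It was -0.21 without ethanol replicate 2, which alone held the high ethanol value, and -2.59 without auxin replicate 1. Without auxin replicate 3 no gene of the 47 passed and 6 of all genes did, and none of the 47 passed without auxin replicate 2. Leaving out either ethanol replicate leaves 1 ethanol library, so the calls of those fits are not given. The median log2 change of the tested large-subunit genes was -0.15 without ethanol replicate 1 and 0.11 without ethanol replicate 2.

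The 4 genes that fell in the other strains had TSR-2 values near those of ethanol. rpl-12 stood at 2214 and 2116 CPM in ethanol and 2140.5, 2208 and 1553 CPM in auxin, the last in the shallow library. Its log2 change was -0.12 (95% interval -0.58 to 0.35, adjusted p = 0.868). rpl-7A held 2460.2 and 2776 CPM in ethanol and 2180.1, 2745 and 2212 CPM in auxin, a log2 change of -0.13 (-0.59 to 0.32).

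For rpl-1 the ethanol values of 1082 and 1266 CPM enclosed 2 of the auxin values of 1044, 1129 and 1106 CPM, and the log2 change was -0.10 (-0.56 to 0.35). That of rpl-26 was -0.26 (-0.74 to 0.21), from 1633 and 1856 CPM to 1657, 1548 and 1042 CPM. The largest other falls in fitted value were rpl-20 at -0.50 (adjusted p = 0.345) and rpl-37, a zinc-binding protein of the subunit, at -0.48 (adjusted p = 0.511). The highest were rpl-2 at 0.44 (adjusted p = 0.346), rpl-27 at 0.44 (adjusted p = 0.437) and rpl-10, the protein whose loading completes the large subunit, at 0.38 (adjusted p = 0.448). At an unadjusted p under 0.05 there was 1 gene (2.22%, against 16.5% of all genes), and DESeq2 called 0. The median over the 45 was 0.016 (all genes -0.034), with 23 above 0 and 22 below. Libraries did not overlap for 10 (22.2%, against 32.6% of all genes).

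The difference between strains was tested directly, and no large-subunit gene passed. The contrasts with the TSR-2 strain used the fractional table, which holds RPOA-2 replicates 1 to 3. For RPOA-2 minus TSR-2 the difference of log2 changes was -1.09 for rpl-12 (SE 0.380, unadjusted p = 0.0101, edgeR adjusted p = 0.702), and rpl-26, rpl-7A and rpl-1 also had an unadjusted p under 0.05, as 4 of 46 genes against 6.55% of all genes. For GRWD-1 minus TSR-2 it was -1.01 for rpl-12 (SE 0.314, unadjusted p = 0.00537, edgeR adjusted p = 0.979) and -0.80 for rpl-7A (SE 0.292, unadjusted p = 0.0145, edgeR adjusted p = 0.979), the 2 of 46 below 0.05 against 4.39% of all genes. For RPOA-2 minus GRWD-1 it was 0.033 for rpl-12 (SE 0.275), and no gene was below an unadjusted 0.05, against 4.61% of all genes. Over all genes, 3 of 11079 (0.0271%), 0 of 8757 (0%) and 1 of 9495 (0.0105%) passed in these contrasts. DESeq2 called rpl-12 in the RPOA-2 contrast with TSR-2, where it called 4 of 11079 genes (0.0361%), and rpl-12 and rpl-7A in the GRWD-1 contrast with TSR-2, where it called 21 of 8757 (0.24%). The fall of the 4 genes is therefore not shown by the edgeR test to differ between strains.

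Across genes, the size of the change ran in a similar order in the 3 strains. Spearman's rho between RPOA-2 and GRWD-1 changes was 0.796 over 46 large-subunit genes, against 0.481 over 6847 genes tested in both. It was 0.623 over 45 for RPOA-2 and TSR-2 (all genes 0.462) and 0.694 over 45 for GRWD-1 and TSR-2 (all genes 0.467). The signs were the same for 25 of 46, 25 of 45 and 38 of 45 large-subunit genes in turn. Over all genes they were the same for 4613 of 6847, 4074 of 6209 and 4159 of 6162. The large-subunit genes and all genes were not matched on level. Each strain had its own ethanol libraries, but genes within a library share its depth and are not independent, so these are descriptions. Of the 45 genes tested in all 3 strains, 17 had values below 0 in each, 4 above 0 in each and 24 mixed signs. Shorter genes tended to lower values, with rho between exon length and log2 change of 0.223, 0.394 and 0.562 in the strains for RPOA-2, GRWD-1 and TSR-2 in turn. Genes with a lower ethanol level per kilobase did so too, with rho of 0.398, 0.356 and 0.483. Neither was computed over all genes.

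The genes that passed belong to different parts of the ribosome. Of the 4 stalk genes rpl-12 alone passed without the block. rla-0, the stalk's core protein, stood at 3311 ± 892 CPM in ethanol and 3373 ± 529 CPM in auxin in the RPOA-2 strain (SD, n = 4 each) and at 4211 ± 497 and 4379.8 ± 613.3 CPM in the GRWD-1 strain (n = 3 each). The acidic stalk proteins rla-1 and rla-2 had log2 changes of -0.11 and -0.34 in the RPOA-2 strain and of -0.50 and -0.44 in the GRWD-1 strain, where both passed with the replicate block (adjusted p = 0.00573 and 0.0110). Of 9 genes around the exit tunnel rpl-26 alone passed in these strains without the block, rpl-4 also passed with it in the GRWD-1 strain (higher, as above), and the range was -1.11 to 0.23 in the RPOA-2 strain and -0.68 to 0.70 in the GRWD-1 strain. The 4 genes of the 5S particle and of late assembly (rpl-5, rpl-10, rpl-24.1 and rpl-24.2) gave no call, with ranges of -0.27 to -0.13 and 0.062 to 0.48.

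The genes with an annotated non-coding transcript, a feature picked after the values were seen, held 2 of the 4 that fell. In the RPOA-2 strain their log2 changes were -1.10 for rpl-12, -0.86 for rpl-1, -0.78 for rpl-22, -0.46 for rpl-30 and -0.17 for rpl-13. The median of these 5 was -0.78, against -0.18 for the 41 other tested genes. In the GRWD-1 strain rpl-30 stood at -0.32 and rpl-13 at 0.26, and the median of the 5 was -0.71, against 0.040 for the others. In the TSR-2 strain the 5 ranged from -0.30 to 0.058 and none passed. rpl-7A and rpl-26 have no such transcript in the annotation, but both hold intronic small nucleolar RNAs. Of the 8 genes that hold one, those 2 passed in the RPOA-2 and GRWD-1 strains, against 4 of 46 tested (8.70%) in each. Over all genes 3.78% and 2.69% passed in these strains in turn. The medians of the 8 were -0.16 in the RPOA-2, 0.13 in the GRWD-1 and 0.18 in the TSR-2 strain. A link of the changes to either feature was not tested. Gene counts do not separate coding from non-coding transcripts.

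The summed share of protein-coding counts on the 47 genes overlapped between ethanol and auxin in 2 of the 3 strains. In the RPOA-2 strain it was 7.99%, 4.76%, 6.64% and 6.80% in ethanol and 5.43%, 6.42%, 5.80% and 6.47% in auxin. Ethanol replicate 2 was the lowest library. In the GRWD-1 strain it was 8.82%, 8.11% and 8.75% in ethanol and 10.6%, 8.71% and 9.09% in auxin, higher in auxin in each of the 3 numbered pairs although the groups overlapped. In the TSR-2 strain it was 7.09% and 7.96% in ethanol and 8.67%, 8.11% and 8.31% in auxin, without overlap there.

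The balance against the 31 small-subunit genes had higher values in auxin in each strain, which is given as a description without a test. The ratio of summed large- to small-subunit counts in the RPOA-2 strain was 1.42, 1.42, 1.43 and 1.45 in ethanol and 1.59, 1.53, 1.55 and 1.54 in auxin. In the GRWD-1 strain it was 1.43, 1.43 and 1.41 in ethanol and 1.58, 1.65 and 1.59 in auxin. Auxin libraries were above ethanol libraries in both strains, and narrowly so in the TSR-2 strain, with 1.55 and 1.46 in ethanol and 1.66, 1.72 and 1.555 in auxin. Within the large-subunit counts the part of rpl-2 was 8.82% to 10.9% in ethanol and 11.7% to 14.04% in auxin in the RPOA-2 strain, and 9.54% to 10.8% against 13.98% to 15.5% in the GRWD-1 strain. Without rpl-2 the ratio was 1.29 to 1.30 in ethanol and 1.32 to 1.38 in auxin in the RPOA-2 strain, 1.277 to 1.284 and 1.33 to 1.42 in the GRWD-1 strain, and 1.30 to 1.35 and 1.34 to 1.45 in the TSR-2 strain, where the groups then overlapped.

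**Figure D4:**
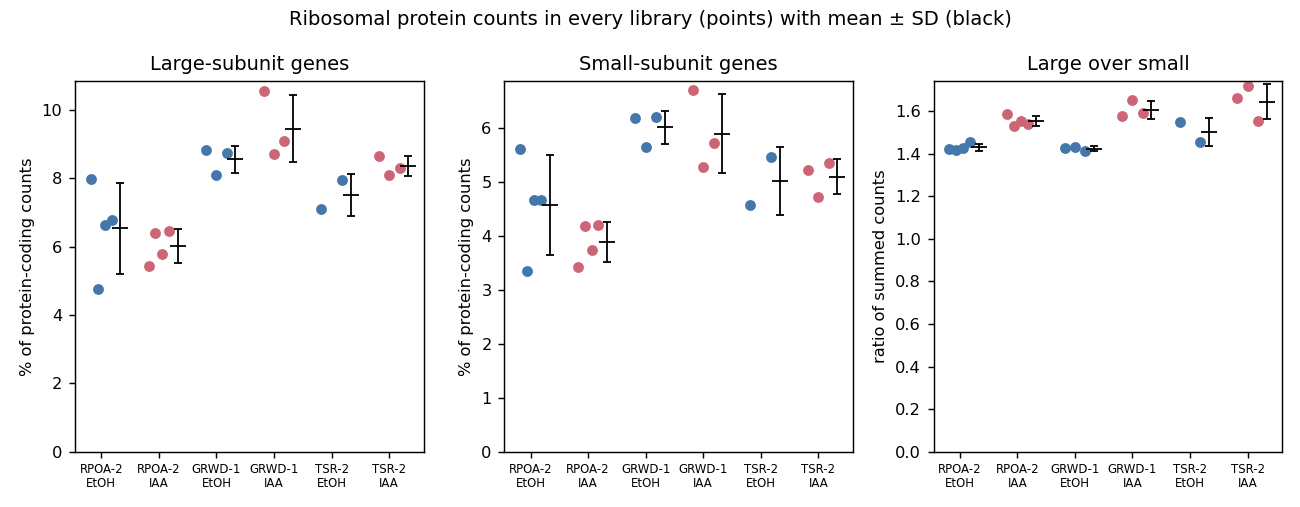
Percent of protein-coding counts on large-subunit and small-subunit ribosomal protein genes, and the ratio of their summed counts, in each library with mean ± SD in black (ethanol in blue, auxin in red; RPOA-2, n = 4 and 4; GRWD-1, n = 3 and 3; TSR-2, n = 2 and 3). The shares overlap between ethanol and auxin in the RPOA-2 strain, while the ratio is higher in auxin libraries of all 3 strains, with the TSR-2 groups almost touching.

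Calls among genes of related steps differed by list and strain. Over all genes, edgeR called 2.56% higher and 1.22% lower in the RPOA-2 strain. These shares were 1.21% and 1.48% in the GRWD-1 strain and 0.532% and 2.02% in the TSR-2 strain. The DESeq2 counts over all genes are given in the last section. Over all genes tested, 19.2% in the RPOA-2, 17.8% in the GRWD-1 and 16.5% in the TSR-2 strain had an unadjusted p under 0.05. With edgeR none of the 31 small-subunit genes passed in the RPOA-2 strain (7 at an unadjusted p under 0.05, 5 with DESeq2) or in the TSR-2 strain (6 and 1). In the GRWD-1 strain 2 fell, rps-20 (log2 change -1.42, edgeR adjusted p = 0.00458) and rps-12 (-0.79, adjusted p = 0.0302), both proteins of the small-subunit head or beak. Their median was -0.18 in the RPOA-2, -0.068 in the GRWD-1 and -0.030 in the TSR-2 strain. Of 12 tested factors that assemble the large subunit, none passed in the RPOA-2 strain (median 0.31). In the GRWD-1 strain 4 rose (median 0.48) and in the TSR-2 strain 1 did (median 0.76). At an unadjusted p under 0.05 there were 7, 8 and 9 of the 12 in turn, all higher, and DESeq2 called 2, 7 and 0. Their summed CPM did not overlap between treatments in any strain. It was 2159 to 3036 in ethanol and 3128 to 3560 in auxin for RPOA-2. For GRWD-1 it was 2603 to 2930 and 3486 to 4208, and for TSR-2 2440 to 3159 and 4255 to 4578. The 4 that rose in the GRWD-1 strain were pro-1 (0.96), lpd-7 (0.83), eif-6 (0.75), which keeps the subunits apart until assembly ends, and wdr-12 (0.62). In the TSR-2 strain pro-3 (0.87) passed. Of 6 elongation factor genes eef-1A.2 rose in the GRWD-1 strain (log2 change 1.48, adjusted p = 0.00582), and no other call was made in the 3 strains, with 3, 4 and 0 of the 6 at an unadjusted p under 0.05 and 2, 3 and 0 called by DESeq2.

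The fractional table, in which reads with several map positions are shared out, gave nearly the same counts for these genes. Over the 12 libraries in both tables, the ratio of fractional to protein-coding-matrix counts had a median of 1.00, and 36 of the 47 lay within 1% of 1. No large-subunit gene exceeded 1.5, against 7.43% of genes with at least 100 counts. The highest were rpl-7A at 1.43 and rpl-42 at 1.42, and rpl-2 stood at 1.12. The lowest was rpl-24.2 at 0.5003. It lies within the span of C03D6.1 on the other strand, with no shared exon.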

How the data were processed

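Total RNA from dissected gonads was sequenced with a stranded kit, per the labels' protocols. Per the submitters' processing notes, Trim Galore 0.6.10, HISAT2 2.2.1, Picard and featureCounts 2.0.6 were used with build WBcel235. The authors deposited whole-number counts per protein-coding gene for the RPOA-2 and GRWD-1 strains. The authors also deposited a table of estimated counts over all features, the fractional table, per the labels made by sharing out reads with several map positions. It includes the TSR-2 strain but not RPOA-2 replicate 4, and was rounded and restricted to protein-coding genes.

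Auxin was compared with ethanol per strain with edgeR 4.0.16 (R 4.3.3, limma 3.58.1), with the default filter on low counts, TMM scaling, the quasi-likelihood test, and Benjamini-Hochberg adjustment over all genes at 0.05. CPM values use TMM-scaled library sizes, and shares use raw counts. Intervals are 95%, the SE times 1.96. The functions were tested on simulated data. Nothing says that replicates came from separate cultures, so p-values measure the spread between these samples. Limits from 3 counts cover counting error only. DESeq2 1.42.0, other scalings, filters and sample sets were alternatives.

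The 47 genes and all gene lists were chosen with earlier results of these data known. Named were genes that passed, the 3 largest changes per direction, stalk genes, numbered pairs, and the 3 highest and lowest levels; others were named after their values were seen. Libraries of one number deviated together in the RPOA-2 strain (correlations 0.179 to 0.294, 4 pairs) and the GRWD-1 strain (0.245 to 0.455, 3 pairs). Libraries of different numbers ran from -0.447 to 0.307 in the RPOA-2 strain and from -0.446 to 0.137 in the GRWD-1 strain. The numbers thus set pairs apart in the GRWD-1 strain, while in the RPOA-2 strain the 2 ranges overlapped (means 0.237 and -0.075). The labels do not say what a number marks. Symbols, exon lengths and overlaps came from the Ensembl annotation of WBcel235.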

Additional observations from a re-analysis of the deposited data

Results flagged for a closer look

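In the RPOA-2 groups of 4 libraries, 94 sets of values were searched for a library far from the others, and 4 were found, where chance gives about 1 in 20. rpl-25.1 stood at 60.1 CPM in ethanol replicate 2, against 16.5 to 21.3 CPM in the other 3. rpl-37 stood at 69.5 CPM in auxin replicate 4, against 23.8 to 29.0 CPM. rpl-2 stood at 9262 CPM in auxin replicate 4, against 7242 to 7490.0 CPM. rpl-43 stood at 556 CPM in auxin replicate 1, against 843 to 897 CPM.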

How the results depend on the processing

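The log2 changes of rpl-12, rpl-7A, rpl-1 and rpl-26 stayed below 0 in all 17 alternatives for the RPOA-2 strain and all 14 for the GRWD-1 strain. rpl-12 passed in 13 of each and rpl-1 in 9 and 6, with adjusted p over the alternatives of up to 0.0738 and 0.0607 for rpl-12. In the RPOA-2 strain, large-subunit genes called were 9 with DESeq2, 8 without the low-count filter, 3 with replicates 1 to 3 only, 0 with the fractional table (which also lacks replicate 4) and 0 to 9 leaving out one library; all genes called were 603 with DESeq2, 136 with all groups in one fit, 33 with the fractional table, 137 with replicates 1 to 3 and 7 to 219 leaving out one. In the GRWD-1 strain the large-subunit counts were 8 with DESeq2, 2 with all groups in one fit, 15 with the replicate block, 2 with the fractional table (rpl-12 and rpl-7A) and 0 to 3 leaving out one, and all genes 455, 975 with the block, 84 with the fractional table and 26 to 125. In the TSR-2 strain 0 were called with DESeq2, total counts, all groups, the block or thinning, and 0 to 4 leaving out one; all genes were 35, 27, 31 and 15 with DESeq2, all groups, the block and thinning, 253 without the filter and 6 to 452. Between strains DESeq2 called 1 (RPOA-2 against TSR-2) and 2 (GRWD-1 against TSR-2). Medians leaving out one were -0.34 to -0.085, -0.096 to 0.079 and -0.15 to 0.11. The sign changed for rpl-12 in the TSR-2 strain with the block (0.0062) and, leaving out one, for rpl-12 (-0.21 to 0.039) and rpl-1 (-0.18 to 0.042) there, and for rpl-37 (-0.44 to 0.61) and rla-1 (-0.30 to 0.0071) in the RPOA-2 strain. The cause was not tested. The share of higher among all calls was 67.8% in the RPOA-2 strain (55.9% with DESeq2) and 44.9% in the GRWD-1 strain (57.6% with total counts). TSR-2 libraries of one number had a mean correlation of -0.119 (2 pairs), and the block left 0 calls there. With 2 ethanol libraries the deviations mirror each other, so these values cannot show whether numbers pair libraries. Auxin replicate 1 gave -0.183 with ethanol replicate 1 and 0.183 with ethanol replicate 2. By library name, ethanol replicate 1 adjoins auxin replicate 2 (0.055) and ethanol replicate 2 adjoins auxin replicate 3 (-0.072). The block on replicate number crossed these neighbours, and a block on library name was not tested. Thinning all libraries to the smallest, chosen after seeing the data because auxin libraries were deeper, kept rpl-12, rpl-7A, rpl-1 and rpl-26 in both strains and added rpl-20 in the RPOA-2 and rpl-2 in the GRWD-1 strain. Auxin replicate 3 limits the TSR-2 depth.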
